A study of Mus musculus with 6 samples.

Results

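The genes of 8 microtubule-associated proteins were followed through the maturation of mouse retinal ganglion cells: Mapt, Map4, Map2, Map1b, Map1a, Map6, Dcx and Dclk1. They were taken by gene symbol from a deposited table of isoform levels that holds 17027 symbols and 50829 isoforms, of which 74 isoforms belong to the 8 genes. Each gene was read as the sum of its isoforms, and each isoform also as its share of that sum.

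The cells were retinal ganglion cells (RGCs), the neurons whose axons form the optic nerve, from WT mice of strain C57/6NCrl. They were taken at embryonic day 18 (E18), at postnatal day 5 (P5) and at 8 weeks (Adult), and each of the 3 ages has 2 libraries. Per the labels' protocols, the cells were captured on an antibody to the surface antigen Thy1 after macrophages and amacrine cells had been depleted, and polyA-selected RNA was sequenced in paired reads of 100 bases. Levels are FPKM, that is, fragments scaled to transcript length and library size, as the authors deposited them. The depth is unknown, and since no label ties the libraries to separate animals or litters, every p-value measures only the spread between these libraries.

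Microtubule-associated proteins bind along the microtubule lattice, stabilise or bundle it, and affect how motors and severing enzymes meet it. Tau (Mapt), MAP2 and MAP4 share a carboxy-terminal series of microtubule-binding repeats, with tau best known in axons, MAP2 in dendrites and cell bodies, and MAP4 in many cell types. MAP1B is abundant in growing axons and MAP1A in mature neurons, MAP6 protects microtubules from cold and drugs, and doublecortin (Dcx) and its relative Dclk1 bind tubulin through paired doublecortin domains and are known from migrating and extending neurons.

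The Adult libraries held less RNA of RGC markers and more of other retinal cells. The 19 RGC markers found in the table, out of 20 listed, summed to 4885 and 5584 FPKM in libraries of E18, 5517 and 4956 FPKM in those of P5, and 706 and 477 FPKM in the Adult ones. Rod markers, 12 of 12 in the table, summed to 6.43 and 5.86 FPKM in libraries of E18, 12.2 and 9.83 FPKM in those of P5, and 5759 and 694 FPKM in the Adult ones. Amacrine markers summed to 1642 and 2198 FPKM in Adult and 365 to 471 FPKM in the younger libraries, and Müller glia markers to 1742 and 2038 FPKM in Adult and 222 to 277 FPKM in the younger ones. Of 10 tested bipolar markers, 9 were called higher in Adult than at P5 and 9 than at E18, and the median over the list was 12.8 and 11.8 FPKM in Adult and 0.119 to 0.234 FPKM in the younger libraries. The list also holds Isl1, a transcription factor known in RGCs too, with 9.18 and 8.52 FPKM in Adult and 115 to 245 FPKM in the younger libraries, so the list's sum of 174 and 157 FPKM in Adult overlapped the 131 to 259 FPKM of the younger ones. Cone markers summed to 86.2 and 82.2 FPKM in Adult and 1.42 to 6.17 FPKM in the younger ones, and the 2 of 8 endothelial markers in the table to 23.9 and 31.2 FPKM in Adult and 0.881 to 9.44 FPKM in the younger ones. Progenitor markers stood apart in E18 replicate 1, with 132 and 9.22 FPKM in libraries of E18, 7.66 and 9.35 FPKM in those of P5, and 65.7 and 63.4 FPKM in the Adult ones. The astrocyte markers (3 of 6 in the table) and the microglia and macrophage markers (1 of 10) stayed under 10 FPKM in sum in all 6 libraries. Of the 19 RGC markers, 16 were called lower in Adult than at P5 and 16 than at E18. Relative to P5, 0 were called higher, and relative to E18, 1 was. Rbpms, an RNA-binding protein that defines RGCs, had 159 and 175 FPKM in libraries of E18 and 177 and 172 FPKM in those of P5. It had 15.9 and 7.45 FPKM in the Adult ones. Thy1, the antigen of the capture, had 161 and 241 FPKM in libraries of E18 and 391 and 369 FPKM in those of P5. It kept 138 and 129 FPKM in the Adult ones. In bulk RNA, fewer cells of a type and less RNA per cell cannot be told apart, and the part of these markers in the results on Adult libraries was not tested.

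**Figure D1:**
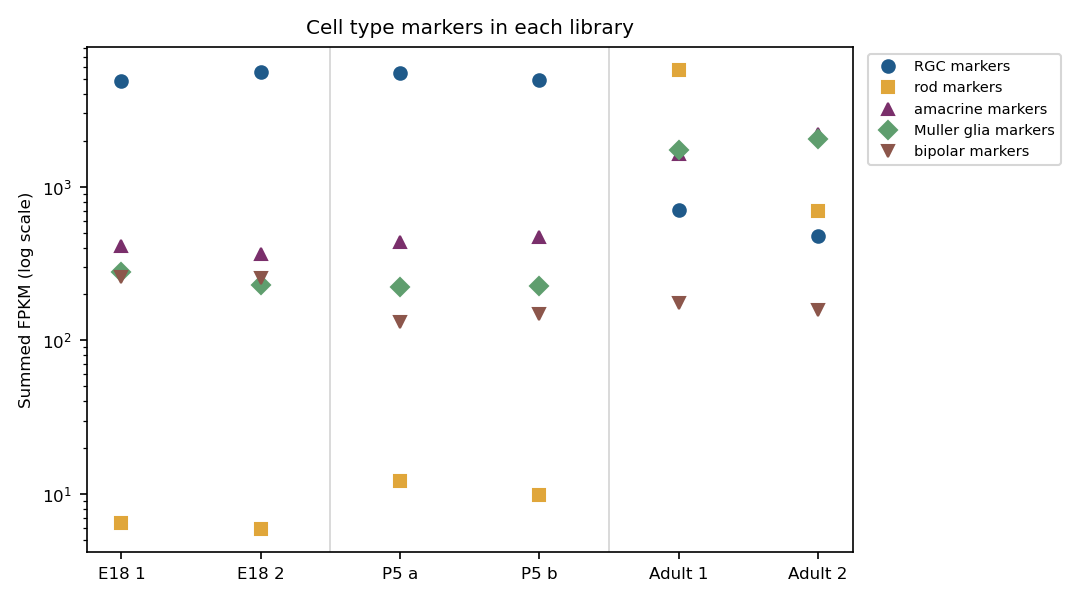
Summed FPKM (log axis) of lists of retinal cell type markers in each of the 6 libraries, 1 point per library and list. RGC markers lie at 706 and 477 FPKM in the Adult libraries and between 4885 and 5584 FPKM in the younger ones, and rod markers reach 5759 and 694 FPKM in Adult.

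Few of the 8 genes passed the test between E18 and P5, and most of them were lower in Adult. P5 against E18 called 2 of the 8 higher, Map1a and Map4, and 0 lower, where 10.5% of the 14390 tested genes were called, 5.52% higher and 4.95% lower. Adult against P5 called 7 lower and 0 higher, where 59.8% of all genes were called, 26.2% higher and 33.7% lower. Adult against E18 called 6 lower and 2 higher, where 59.7% were called, 25.3% higher and 34.4% lower. The Adult calls of Mapt, Map1b, Map2, Map6, Dcx and Dclk1 in both comparisons, and that of Map1a against E18, were kept without any single library. Calls were made with limma at a Benjamini-Hochberg adjusted p under 0.05 over all tested genes. In the same order of comparisons, the median change of the 8 genes was -0.12, -1.25 and -1.60 on the log2(FPKM + 1) scale, and that of the RGC markers was 0.05, -3.10 and -3.22. Over all tested genes the medians were -0.03, -0.07 and -0.11. Libraries of 2 ages did not overlap for 63.2% of all tested genes in P5 against E18. For Adult it was 78.7% against P5 and 84.1% against E18. Lack of overlap, given below for single genes, is therefore common with 2 libraries per age.

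The order of the genes turned over with age. At E18 the mean level in FPKM (± SD, n = 2) ran from Mapt (392 ± 49.6) through Map1b (263 ± 5.48), Map2 (187 ± 4.31), Dclk1 (134 ± 4.75), Map4 (129.8 ± 16.7), Map6 (106 ± 3.11), Dcx (82.3 ± 1.90) to Map1a (5.53 ± 0.156). In Adult it ran from Map4 (165 ± 5.20) through Map2 (98.7 ± 4.87), Map1b (78.5 ± 8.40), Mapt (61.5 ± 7.67), Dclk1 (48.2 ± 8.64), Map6 (31.0 ± 0.798), Map1a (14.7 ± 1.5) to Dcx (1.97 ± 0.994). Neighbours in this order whose libraries overlapped were Dclk1 and Map4 at E18, Map4 and Map1b at P5, and Map6 and Dclk1 at P5, while neighbours in Adult did not overlap. By level, Mapt was gene number 131 of 14390 at E18, 145 at P5 and 1003 in Adult, whereas Map4 stood at 522, 262 and 230.

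**Figure D2:**
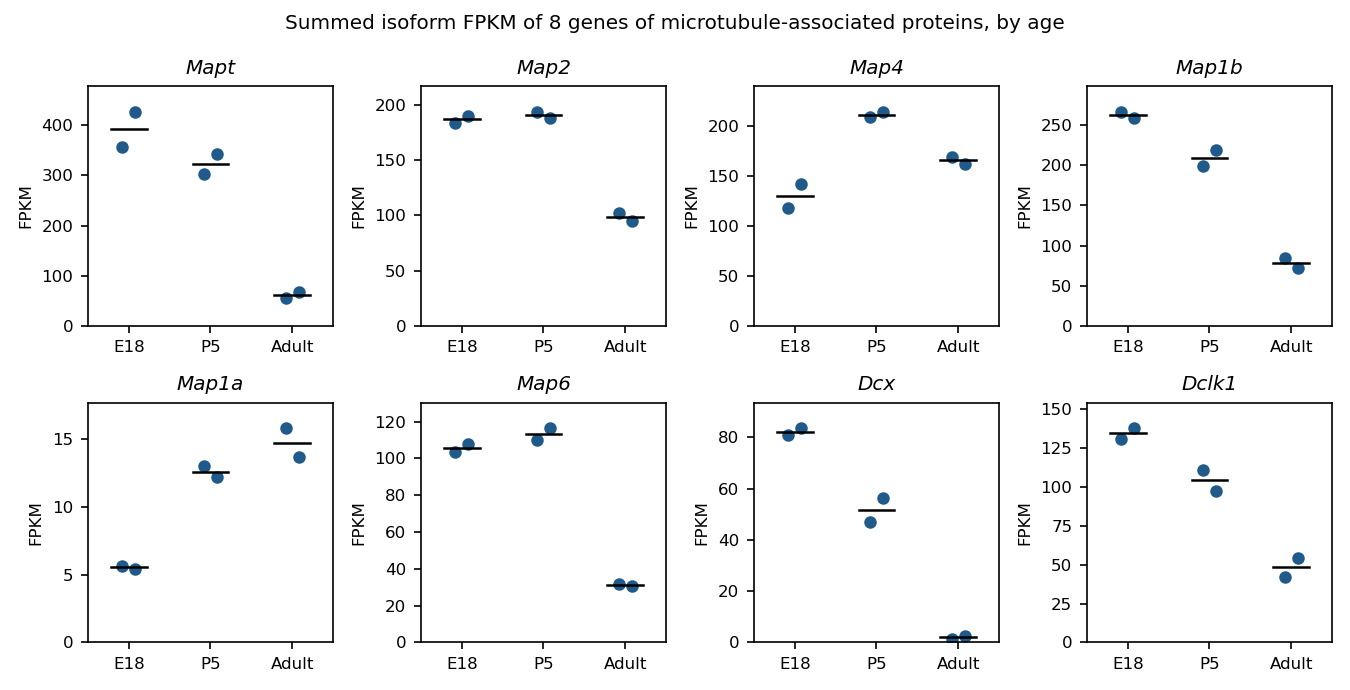
Level of each of the 8 genes (summed isoform FPKM, linear axis from 0) by age, 1 point per library (n = 2 per age). Mapt, Map1b, Map2, Map6, Dcx and Dclk1 are lower in both Adult libraries than in all 4 younger ones, and Map1a is higher in both Adult libraries than in those of E18.

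Mapt encodes tau (chr11:104231390-104332090, + strand, GRCm38) and fell steeply in Adult. It had 357 and 427 FPKM in libraries of E18, 303 and 342 FPKM in those of P5, and 56.1 and 66.9 FPKM in the Adult ones. The Adult libraries lay far below all others, and those of P5 lay below both of E18. Adult libraries were 5.25-fold lower than P5 (log2 change -2.38, SE 0.14, adjusted p 7.7e-05) and 6.37-fold lower than E18 (log2 change -2.65, SE 0.14, adjusted p 4.26e-05), while P5 against E18 did not pass the test (log2 change -0.28, 95% interval -0.62 to 0.06, adjusted p 0.247).

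Of the 7 listed Mapt isoforms, an annotated coding transcript of 5253 bases and 372 codons carried most of the RNA. It took 93.0 and 92.8% in libraries of E18, 84.3 and 86.7% in those of P5, and 82.0 and 85.3% in the Adult ones. A pair of isoforms of 6297 and 6336 bases that match no annotated transcript together took 4.81 and 5.14% in libraries of E18, 12.2 and 9.77% in those of P5, and 11 and 9.11% in the Adult ones. The isoform of 6297 bases exceeds the main one by 1044 bases, which equals the summed length of annotated coding exons of 87, 759 and 198 bases that the main one lacks. The exon of 759 bases belongs to the long annotated form known as big tau, but the table gives no exons for this isoform. No share of Mapt was called: for the main isoform the adjusted p was 0.331 in P5 against E18, 0.587 in Adult against P5 and 0.0542 in Adult against E18. These shares cannot show the use of an exon of 93 bases in the repeat region. All 5 annotated coding transcripts of Mapt that span this exon hold it, so no annotated listing stands for a form that skips it.

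Some coding exons of Map4 are held by only part of its isoforms. Map4 has an exon of 93 bases at chr9:110072613-110072705 (+), which some of its isoforms hold and others skip, and some also hold an exon of 114 bases just before it, at chr9:110071026-110071139 (+). The sequences (GRCm38, GENCODE M21, in lower case) are shown because the Map4 isoforms described next differ in whether they hold these exons. Those isoforms also differ in where the coding sequence starts. On chromosome 9 it starts at 109978869 in the form of 1124 codons. In those of 933 and 902 codons it starts at 110052070, and in that of 414 codons at 110064342.
Map4 exon of 93 bases: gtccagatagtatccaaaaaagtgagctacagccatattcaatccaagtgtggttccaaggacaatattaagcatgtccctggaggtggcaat
Map4 exon of 114 bases: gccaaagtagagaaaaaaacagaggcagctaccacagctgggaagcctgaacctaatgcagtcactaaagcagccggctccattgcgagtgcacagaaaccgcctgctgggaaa

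Map4 (chr9:109931460-110083955, + strand) did not follow tau. It had 118 and 142 FPKM in libraries of E18, 208 and 214 FPKM in those of P5, and 169 and 162 FPKM in the Adult ones. The P5 libraries were the highest, the E18 libraries the lowest, and no ages overlapped. P5 was 1.63-fold higher than E18 (log2 change 0.70, SE 0.11, adjusted p 0.0212), Adult was 1.28-fold lower than P5 (log2 change -0.35, SE 0.11, adjusted p 0.0362) and 1.27-fold higher than E18 (log2 change 0.35, SE 0.11, adjusted p 0.0357). The first call was lost without any single library (adjusted p 0.053 to 0.159), the second lost without either P5 library or either Adult library (adjusted p up to 0.127) and the third lost without E18 replicate 1, either P5 library or either Adult library (adjusted p up to 0.198). The direction also depended on the scaling: Adult against P5 was 0.11 after quantile normalization (adjusted p 0.38), and Adult against E18 was -0.27 in TPM (adjusted p 0.0666), which is 0.41 relative to the median of all genes.

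Inside Map4, isoforms moved in opposite directions. The form of 1124 codons, with both the 114- and the 93-base exon, had 24.8 and 28.4 FPKM in libraries of E18, 34.9 and 35.5 FPKM in those of P5, and 9.22 and 10.01 FPKM in the Adult ones. Its share was 5.45 and 6.19% in Adult, against 16.7 and 16.6% in P5 libraries and 21 and 20.1% in E18 ones, and both Adult differences were called (-10.8 points, SE 2.0, adjusted p 0.0306, against P5 and -14.7 points, SE 2.0, adjusted p 0.0192, against E18). The share call against P5 was lost without any single library (adjusted p 0.0545 to 0.106) and that against E18 lost without either E18 library (adjusted p up to 0.121), while the share changes kept to -11.2 to -10.5 and -15.2 to -14.3 points.

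The form of 902 codons, which lacks the 93-base exon, had 8.74 and 4.49 FPKM in Adult, against 0.325 and 0.354 FPKM in P5 libraries and 0.397 and 0.0914 FPKM in E18 ones. An isoform of 4105 bases, matched to a short coding form of 414 codons with both exons, was listed at 0 in all 4 younger libraries and had 11.8 and 6.14 FPKM in Adult. Both passed the filter of a mean of 1 FPKM only through Adult and were picked for these values, so no test is given. The form of 933 codons, with the 93-base exon and without the other, had 14.4 and 15.5 FPKM in libraries of E18, 41.5 and 33.3 FPKM in those of P5, and 30.8 and 25.9 FPKM in the Adult ones. It rose at P5 against E18 (log2 change 1.26, adjusted p 0.0353), a call lost without any single library (adjusted p 0.0848 to 0.292), and was higher in Adult than at E18 (log2 change 0.88, adjusted p 0.00738), a call lost without E18 replicate 1 (adjusted p up to 0.0547). The remaining large isoforms had no called share: a form of 99 codons took 23.0 to 29.3% of the gene, an unannotated isoform of 4947 bases 15.3 to 23.0% and a form of 290 codons 9.86 to 12.6%.

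The shares of the upstream and downstream starts of Map4 moved in opposite directions as well. Isoforms that start within 1000 bases of the upstream RefSeq start took 50.4 and 49.2% in libraries of E18, 40.3 and 40.6% in those of P5, and 28.5 and 30.1% in the Adult ones. Those of the downstream start took 32.5 and 31.2% in libraries of E18, 35.4 and 34.8% in those of P5, and 39.7 and 41.8% in the Adult ones. The upstream start was lower at each later age and the downstream one higher, with no overlap between ages, and these sums were not tested. The RefSeq windows of 300 bases (GRCm38.p6, + strand, 250 before the start and 50 after it) at chr9:109931524-109931823 and chr9:110051771-110052070 are shown with each CG in capitals, since the isoforms part at these starts.
Map4 upstream start: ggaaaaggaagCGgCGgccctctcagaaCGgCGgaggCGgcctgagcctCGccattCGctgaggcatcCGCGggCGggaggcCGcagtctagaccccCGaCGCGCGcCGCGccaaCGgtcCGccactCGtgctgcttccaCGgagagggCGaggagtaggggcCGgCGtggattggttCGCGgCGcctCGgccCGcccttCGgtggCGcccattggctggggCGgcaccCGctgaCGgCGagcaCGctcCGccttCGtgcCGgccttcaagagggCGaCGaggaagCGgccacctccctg
Map4 downstream start: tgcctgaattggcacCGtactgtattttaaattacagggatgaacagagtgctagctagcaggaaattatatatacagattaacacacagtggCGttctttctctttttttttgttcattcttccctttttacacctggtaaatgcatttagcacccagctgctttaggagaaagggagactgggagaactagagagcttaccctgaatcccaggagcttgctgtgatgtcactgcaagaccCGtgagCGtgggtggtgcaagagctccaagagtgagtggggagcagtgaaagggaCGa
The upstream window holds 42 CG, a number reached by 3.03% of the 32851 RefSeq windows of this length, and the downstream window holds 5, reached by 62.0%. The upstream window holds the letters GGGCGG, searched on both strands, as 35.7% of all windows do, and the downstream window does not.

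Map2 (chr1:66175273-66442583, + strand) had overlapping levels at E18 and P5 and was lower in Adult. It had 184 and 190.2 FPKM in libraries of E18, 194 and 188 FPKM in those of P5, and 102 and 95.2 FPKM in the Adult ones. The P5 and E18 libraries overlapped and the Adult libraries lay below both. Adult was 1.93-fold lower than P5 (log2 change -0.95, SE 0.09, adjusted p 0.000321) and 1.90-fold lower than E18 (log2 change -0.92, SE 0.09, adjusted p 0.000319), whereas P5 against E18 was not called (log2 change 0.03, 95% interval -0.19 to 0.25, adjusted p 0.873).

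Much of the Map2 level in the younger libraries was given to an isoform of 5420 bases that matches no annotated transcript. It had 97.0 and 105 FPKM in libraries of E18, 76.5 and 67.5 FPKM in those of P5, and 17.9 and 21.5 FPKM in the Adult ones. As a share of the gene it took 52.7 and 55.0% in libraries of E18, 39.4 and 35.9% in those of P5, and 17.6 and 22.5% in the Adult ones. The share was called lower in Adult than at E18 (-33.8 points, SE 4.23, adjusted p 0.0166), a call lost without either E18 library (adjusted p up to 0.114). At this length it cannot hold the annotated long coding sequence of 5484 bases. Summed over annotated isoforms alone, Map2 fell in Adult against P5 (log2 change -0.61, adjusted p 0.0042), but the change against E18 was -0.15 and not called (adjusted p 0.294).

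MAP2 is known in large forms and in a small form that lacks a long middle exon. The annotated form with this exon of 3741 bases, of 1828 codons, had 34.0 and 35.8 FPKM in libraries of E18, 38.9 and 36.8 FPKM in those of P5, and 14.2 and 13.3 FPKM in the Adult ones. It fell in Adult against P5 (log2 change -1.40, adjusted p 0.000605) and against E18 (log2 change -1.28, adjusted p 0.000687), while its share of 13.9 to 20.1% was not called. The 3 complete coding transcripts without the exon, each of 467 codons, together took 15.7 and 13.0% in libraries of E18, 27.6 and 30.4% in those of P5, and 40.3 and 35.3% in the Adult ones. Within this sum the Adult libraries disagreed: the listing of 5125 bases had 32.1 FPKM in replicate 1 and 2.54 FPKM in replicate 2, after 0 in all 4 younger libraries, and that of 5195 bases had 5.57 and 24.5 FPKM. Since these transcripts share their whole coding sequence, only their sum is read here. That sum was 29.0 and 24.7 FPKM in libraries of E18 and 53.5 and 57.1 FPKM in those of P5. In the Adult libraries it was 41.1 and 33.6 FPKM, below P5 and above E18. It leaves out the unannotated isoform of 5420 bases, whose share was smaller at each later age. Whether that isoform holds the exon of 3741 bases is not known from its length. The sum is therefore not the share of all small forms.

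Map1b (chr13:99421446-99516540, minus strand) and Map1a (chr2:121289600-121310832, + strand) encode large polyproteins cleaved into heavy and light chains, and their levels drew closer with age. Map1b had 267 and 259 FPKM in libraries of E18, 199.5 and 219 FPKM in those of P5, and 84.4 and 72.5 FPKM in the Adult ones. Map1a had 5.64 and 5.42 FPKM in libraries of E18, 13.0 and 12.2 FPKM in those of P5, and 15.8 and 13.7 FPKM in the Adult ones. The ages did not overlap for either gene, with Map1b lower and Map1a higher at each later age. The ratio of Map1b to Map1a within a library was 47.3 and 47.8 in libraries of E18, 15.3 and 18 in those of P5, and 5.34 and 5.31 in the Adult ones.

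Map1a at P5 was 2.28-fold higher than at E18 (log2 change 1.06, SE 0.13, adjusted p 0.0113) and in Adult 2.66-fold higher than at E18 (log2 change 1.27, SE 0.13, adjusted p 0.000344). The call at P5 was lost without either E18 library or P5 library a (adjusted p up to 0.122). Adult against P5 was not called as deposited (log2 change 0.21, SE 0.13, adjusted p 0.203), while it was 0.52 (adjusted p 0.012) scaled to protein-coding genes and -0.51 (adjusted p 0.0199) in TPM, or 0.31 and 0.25 relative to the median of all genes. Map1b in Adult was 2.67-fold lower than at P5 (log2 change -1.41, SE 0.11, adjusted p 0.00017) and 3.35-fold lower than at E18 (log2 change -1.73, SE 0.11, adjusted p 7.09e-05), and P5 against E18 was not called (log2 change -0.33, 95% interval -0.60 to -0.06, adjusted p 0.113).

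Single isoforms carried most of both genes. The Map1b form of 2464 codons took 97.4 and 97.8% in libraries of E18, 96.0 and 96.9% in those of P5, and 91.0 and 91.5% in the Adult ones. Its share was called lower in Adult than at E18 (-6.36 points, SE 1.40, adjusted p 0.0475), a call lost without any single library (adjusted p 0.0507 to 0.216). The main Map1a listing, of 10145 bases and 2776 codons, took 76.1 to 84.2% of its gene, the form of 3014 codons 7.74 to 13.7% and a second listing of the main form, of 11539 bases, 0.297 to 13.0%, with no called share. The locus that the table gives for Map1a runs on to position 121355396 of chromosome 2, over a neighbouring gene on the other strand, and annotated antisense genes overlap Mapt, Map1a, Map2, Map4 and Dclk1. Whether the counting used strand is not given in the sources used here.

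Map6 (chr7:99267447-99337137, + strand) had another main isoform in Adult than in the younger libraries, beneath a lower gene level. The gene had 103 and 108 FPKM in libraries of E18, 109.8 and 116 FPKM in those of P5, and 31.5 and 30.4 FPKM in the Adult ones. Both Adult libraries lay below all others, 3.65-fold lower than P5 (log2 change -1.84, SE 0.09, adjusted p 4.93e-05) and 3.41-fold lower than E18 (log2 change -1.74, SE 0.09, adjusted p 4.24e-05). P5 against E18 was not called (log2 change 0.10, 95% interval -0.13 to 0.32, adjusted p 0.529).

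MAP6 is known in a long neuronal form and in forms that lack its carboxy-terminal part. In the annotation, a transcript of 568 codons reads past the end of the third coding exon into a stop codon, whereas one of 906 codons splices there to a last coding exon of 1015 bases. Both are shown from the last 60 bases of the shared exon (chr7:99317609-99317668, +, GRCm38, GENCODE M21), since the exchange turns on this junction. Capitals mark, in the first, the base and stop codon read past the exon and, in the second, the first 60 bases of the next exon (chr7:99335985-99336044).
Map6 read-through end: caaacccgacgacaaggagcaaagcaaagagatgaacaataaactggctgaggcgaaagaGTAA
Map6 spliced junction: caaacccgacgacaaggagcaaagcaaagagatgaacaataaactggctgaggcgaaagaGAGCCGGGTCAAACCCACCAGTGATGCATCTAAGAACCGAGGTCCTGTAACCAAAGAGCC

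The read-through form had 78.1 and 82.8 FPKM in libraries of E18, 78.4 and 79.1 FPKM in those of P5, and 3.14 and 3.64 FPKM in the Adult ones, and fell in Adult against P5 (log2 change -4.18, adjusted p 5.26e-05) and against E18 (log2 change -4.21, adjusted p 4.22e-05). Its share was 75.5 and 76.7% in libraries of E18, 71.4 and 68.0% in those of P5, and 9.96 and 12% in the Adult ones. The share was lower in Adult than at P5 (-58.7 points, SE 3.94, adjusted p 0.00677) and than at E18 (-65.1 points, SE 3.94, adjusted p 0.00636). The first call was lost without P5 library a (adjusted p up to 0.0537) and the second lost without either E18 library (adjusted p up to 0.0853), with changes of -60.4 to -57.0 and -66.1 to -64.1 points.

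The 3 listings that hold the 1015-base exon together had 6.80 and 8.00 FPKM in libraries of E18, 14.9 and 19.1 FPKM in those of P5, and 27.5 and 24.6 FPKM in the Adult ones. Their summed share was 6.57 and 7.42% in libraries of E18, 13.5 and 16.4% in those of P5, and 87.2 and 81.0% in the Adult ones. The sum was higher at each later age in FPKM as well as in share, with no overlap, and was not tested as a sum. Of its parts, the listing of 3430 bases took 6.36 and 6.61% in libraries of E18 and 2.72 and 5.70% in those of P5. In the Adult libraries it took 28.6 and 36.1%. Its share was called higher in Adult than at E18 (25.9 points, SE 3.22, adjusted p 0.0163), a call lost without either E18 library. Its mean share at P5 was 4.21%, under the filter of 5%, so no test against P5 is given. The level of this listing was 6.58 and 7.13 FPKM in libraries of E18 and 9.01 and 10.96 FPKM in the Adult ones. That change was not called (log2 change 0.48, adjusted p 0.258). The listing of 3431 bases took 0.208 and 0.811% in libraries of E18, 2.51 and 0.574% in those of P5, and 28.1 and 34.4% in the Adult ones, and passed the filter of a mean share of 5% only through Adult, so no test is given. The listing of 2906 bases had 0 and 0 FPKM in libraries of E18, 9.12 and 11.8 FPKM in those of P5, and 9.60 and 3.19 FPKM in the Adult ones, and its share was not called (adjusted p 0.286 in Adult against P5). It has the length of an annotated transcript of 703 codons, whose start and coding sequence begin later in the first exon. The listings of 3430 and 3431 bases have the lengths of a pair of transcripts of 906 codons with the same coding exons, so reads may be split between them in more than one way.

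A form of 306 codons was listed at 0 in Adult. It had 15.1 and 14.1 FPKM in libraries of E18, 14.6 and 16.0 FPKM in those of P5, and 0 and 0 FPKM in the Adult ones. Its share was 13.1 to 14.6% in the younger libraries, and no test is given since it passed the filters only through the younger ages.

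**Figure D3:**
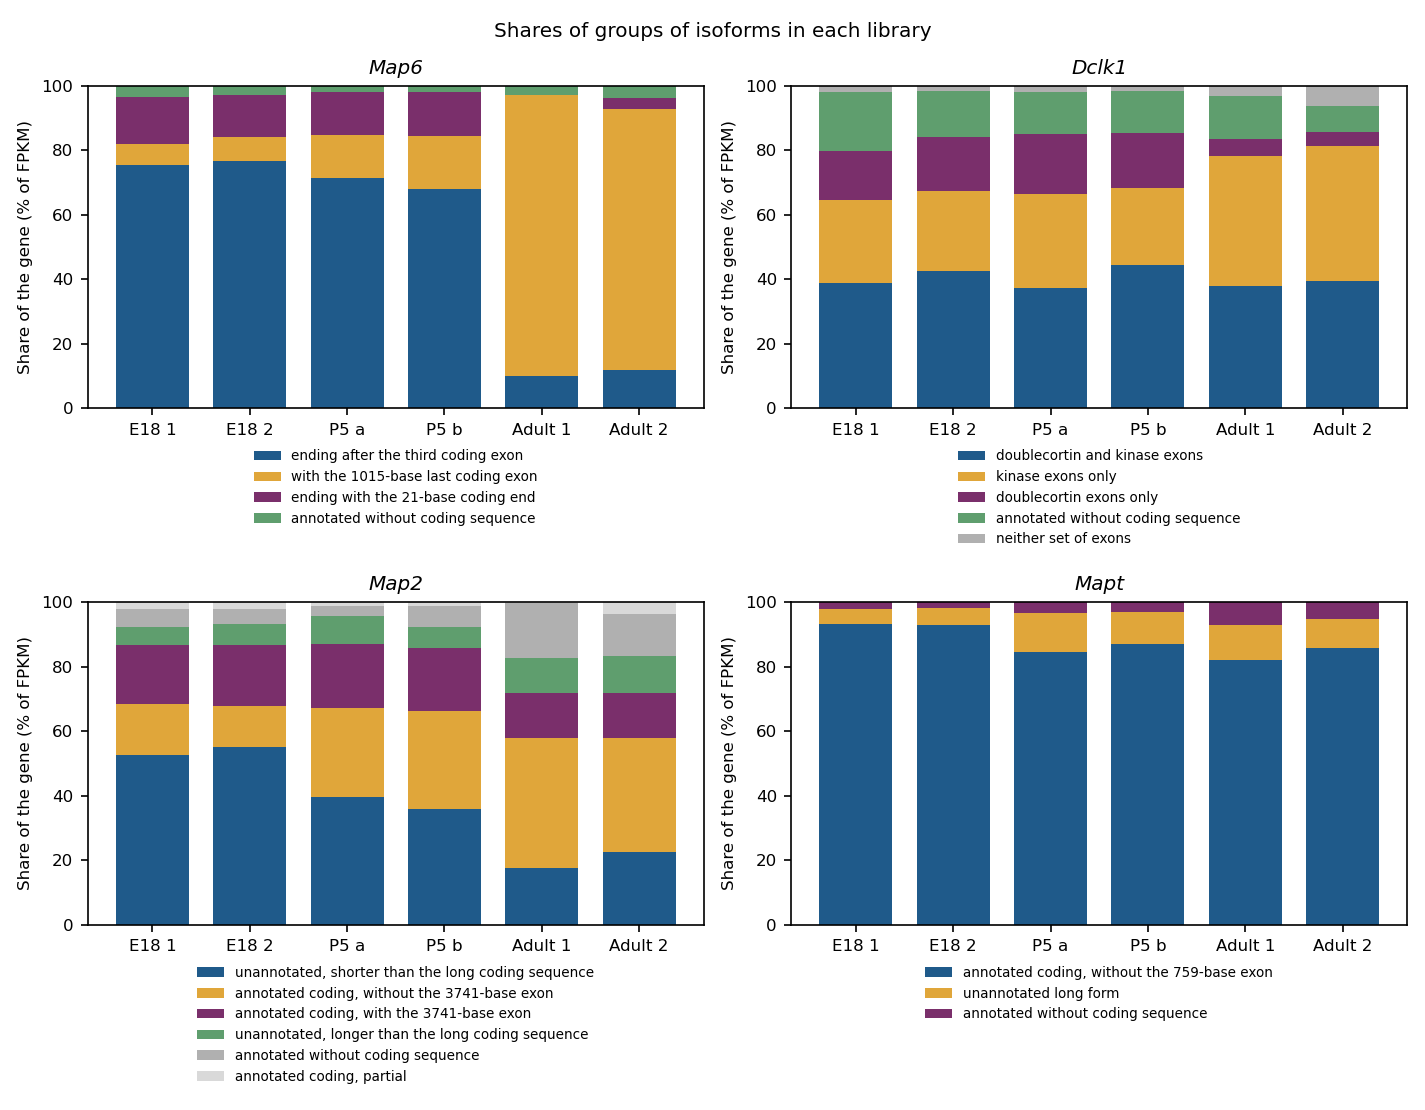
Share of the gene (% of its summed FPKM) taken by groups of isoforms in each of the 6 libraries, 1 panel per gene. In Map6 the form ending after the third coding exon takes 68.0 to 76.7% in the younger libraries, and the forms with the 1015-base exon take 87.2% and 81.0% in Adult.

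Dcx (chrX:143855842-143933311, minus strand) was nearly gone in Adult. It had 80.9 and 83.6 FPKM in libraries of E18, 47.1 and 56.6 FPKM in those of P5, and 1.26 and 2.67 FPKM in the Adult ones. The ages did not overlap. Adult was 26.3-fold lower than P5 (log2 change -4.19, SE 0.23, adjusted p 6.42e-05) and 41.8-fold lower than E18 (log2 change -4.85, SE 0.23, adjusted p 3.09e-05). P5 against E18 was not called (log2 change -0.66, 95% interval -1.22 to -0.10, adjusted p 0.122).

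The coding isoforms of Dcx differ by small extensions of a pair of exons. The exons are shown at chrX:143870607-143870704 and chrX:143875755-143875892 (minus strand, GRCm38, GENCODE M21), with the 3 and 15 bases that the short versions lack in capitals.
Dcx exon of 98 bases: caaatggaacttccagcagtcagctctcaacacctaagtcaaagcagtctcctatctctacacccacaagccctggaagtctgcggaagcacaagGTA
Dcx exon of 138 bases: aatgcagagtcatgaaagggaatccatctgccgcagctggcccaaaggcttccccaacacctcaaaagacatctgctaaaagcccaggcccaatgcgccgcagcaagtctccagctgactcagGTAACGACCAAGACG
The pair of isoforms of 366 codons took 47.2% and 42.4% of the gene at P5, against 46.7% and 44.1% at E18. The form of 365 codons took 33.8% and 31.5% at P5, against 24.4% and 29.3% at E18, and that of 360 codons 12.5% and 14.6%, against 18.4% and 17.2%. No Dcx share was called between these ages.

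The 4 coding forms of Dcx had at most 1.116 FPKM in an Adult library. An isoform of 2617 bases annotated with a retained intron had 5.46 and 5.05 FPKM in libraries of E18, 2.08 and 4.36 FPKM in those of P5, and 0.419 and 0.845 FPKM in the Adult ones. Its share was called higher in Adult than at P5 (26.3 points, SE 2.33, adjusted p 0.00949), a call lost without P5 library a (adjusted p up to 0.0569). A second retained-intron isoform, of 3194 bases, had 3.08 and 2.83 FPKM in libraries of E18, 0.975 and 2.12 FPKM in those of P5, and 0.149 and 0.708 FPKM in the Adult ones and no called share. All these Adult shares are of a gene at 1.26 and 2.67 FPKM.

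Dclk1 (chr3:55242364-55539068, + strand) carries doublecortin domains at one end and a kinase at the other, and its isoforms hold either or both. The gene had 131 and 138 FPKM in libraries of E18, 111 and 97.5 FPKM in those of P5, and 42.1 and 54.3 FPKM in the Adult ones. The ages did not overlap. Adult was 2.16-fold lower than P5 (log2 change -1.10, SE 0.14, adjusted p 0.00106) and 2.79-fold lower than E18 (log2 change -1.47, SE 0.14, adjusted p 0.000305), and P5 against E18 was not called (log2 change -0.37, 95% interval -0.72 to -0.02, adjusted p 0.154). The ratio of Dclk1 to Dcx within a library was 1.62 and 1.65 in libraries of E18, 2.35 and 1.72 in those of P5, and 33.3 and 20.3 in the Adult ones.

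The coding ends on which the Dclk1 shares turn are shown next (GRCm38, + strand, GENCODE M21, stop codons in capitals). The full form of 756 codons ends at chr3:55533570-55533734. A kinase form of 422 codons adds an exon of 74 bases, also in capitals, and ends early in the same last exon; its printed parts lie within chr3:55521850-55533627. The form of 363 codons, with doublecortin exons only, ends in an exon of its own at chr3:55466573-55466629. A kinase form of 449 codons holds the long version of an exon at chr3:55477805-55477937, whose last 48 bases, in capitals, the form of 422 codons lacks.
Dclk1 full form end: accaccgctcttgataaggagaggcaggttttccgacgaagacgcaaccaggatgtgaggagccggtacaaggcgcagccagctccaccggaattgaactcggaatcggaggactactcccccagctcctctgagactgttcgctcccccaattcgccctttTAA
Dclk1 short kinase end: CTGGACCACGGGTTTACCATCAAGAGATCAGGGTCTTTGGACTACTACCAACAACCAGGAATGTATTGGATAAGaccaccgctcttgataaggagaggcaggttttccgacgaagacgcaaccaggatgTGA
Dclk1 doublecortin end: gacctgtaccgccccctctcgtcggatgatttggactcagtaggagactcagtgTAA
Dclk1 exon of 133 bases: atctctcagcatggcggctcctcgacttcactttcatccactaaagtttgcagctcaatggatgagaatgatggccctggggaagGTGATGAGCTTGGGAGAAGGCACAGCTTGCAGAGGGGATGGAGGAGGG

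The form with doublecortin exons only took a smaller share in Adult. It had 19.8 and 23.0 FPKM in libraries of E18, 20.7 and 16.7 FPKM in those of P5, and 2.19 and 2.32 FPKM in the Adult ones. Its share was 15.1 and 16.7% in libraries of E18, 18.7 and 17.1% in those of P5, and 5.19 and 4.27% in the Adult ones. The Adult libraries lay below all others, and their mean share was under the filter of 5%. With a filter of 1%, which it passed at each age, the share was called lower than at P5 (-13.1 points, adjusted p 0.0256) and than at E18 (-11.2 points, adjusted p 0.0373). With the filter of 5%, the first call was lost without either E18 library or either P5 library (adjusted p up to 0.0835) and the second lost without any single library (adjusted p 0.0526 to 0.161). The level of the form itself was lower in Adult than at P5 (log2 change -2.59, adjusted p 0.000312).

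The kinase form of 422 codons took a larger share in Adult. It had 3.29 and 2.45 FPKM in libraries of E18, 4.17 and 4.61 FPKM in those of P5, and 5.89 and 6.63 FPKM in the Adult ones. Its share was 2.51 and 1.78% in libraries of E18, 3.77 and 4.73% in those of P5, and 14 and 12.2% in the Adult ones. It passed the share filter of 5% only through Adult, so the tests with that filter are not given. Its level passed the filter of 1 FPKM at each age and was higher in Adult than at E18 (log2 change 0.91, adjusted p 0.0102), a call lost without E18 replicate 2 or Adult replicate 2 (adjusted p up to 0.0793), and not called against P5 (adjusted p 0.107). The kinase form of 449 codons was listed at 0 in the 4 younger libraries and had 3.90 and 3.74 FPKM in Adult, which alone brought it past the filter, so no test is given.

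The other large Dclk1 isoforms had no called share, and the levels of these 4 were called lower in Adult than at P5 and than at E18. The full form of 756 codons took 29.4 to 35.5% of the gene over the 6 libraries, a similar form of 739 codons 4.15 to 11.3%, a kinase form of 432 codons 16.2 to 21.2% and a retained-intron isoform of 775 bases 2.26 to 9.0%. The level call of the form of 739 codons against P5 was lost without Adult replicate 1. For the isoform of 775 bases, the level call against E18 was lost without either E18 library. Its level call against P5 was lost without any single library except Adult replicate 2. All 6 isoforms with kinase exons only summed to 25.8 and 24.8% in libraries of E18, 29.2 and 23.9% in those of P5, and 40.4 and 41.7% in the Adult ones, and the pair with both sets of exons to 38.9 and 42.6% in libraries of E18, 37.2 and 44.3% in those of P5, and 37.9 and 39.6% in the Adult ones.

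Grouped by start, the isoforms that begin within 1000 bases of the upstream RefSeq start of Dclk1 took 54.1 and 59.3% in libraries of E18, 55.8 and 61.4% in those of P5, and 43.1 and 43.9% in the Adult ones. Those of the downstream start took 26.6 and 25.8% in libraries of E18, 31.1 and 25.3% in those of P5, and 43.5 and 46.1% in the Adult ones. In Adult the upstream share lay below and the downstream share above all younger libraries, and these sums were not tested. The windows lie at chr3:55242114-55242413 and chr3:55461478-55461777 (+, RefSeq, GRCm38.p6) and have each CG in capitals.
Dclk1 upstream start: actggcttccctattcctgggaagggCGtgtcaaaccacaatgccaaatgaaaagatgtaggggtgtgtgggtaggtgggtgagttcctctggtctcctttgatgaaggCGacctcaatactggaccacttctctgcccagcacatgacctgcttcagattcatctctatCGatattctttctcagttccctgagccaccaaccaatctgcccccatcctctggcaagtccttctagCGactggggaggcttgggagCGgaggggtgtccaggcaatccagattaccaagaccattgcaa
Dclk1 downstream start: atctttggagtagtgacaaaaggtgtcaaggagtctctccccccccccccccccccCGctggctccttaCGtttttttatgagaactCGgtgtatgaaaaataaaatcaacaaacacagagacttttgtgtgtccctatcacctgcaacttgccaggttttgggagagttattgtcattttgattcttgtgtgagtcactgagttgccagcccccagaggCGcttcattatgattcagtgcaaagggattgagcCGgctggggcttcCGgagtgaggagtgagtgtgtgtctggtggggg
They hold 5 and 6 CG, numbers reached by 62.0% and 56.4% of all windows, and neither holds TATAAA on either strand, which 13.6% of all windows do. RefSeq windows matched 6 of the 8 genes.

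**Figure D4:**
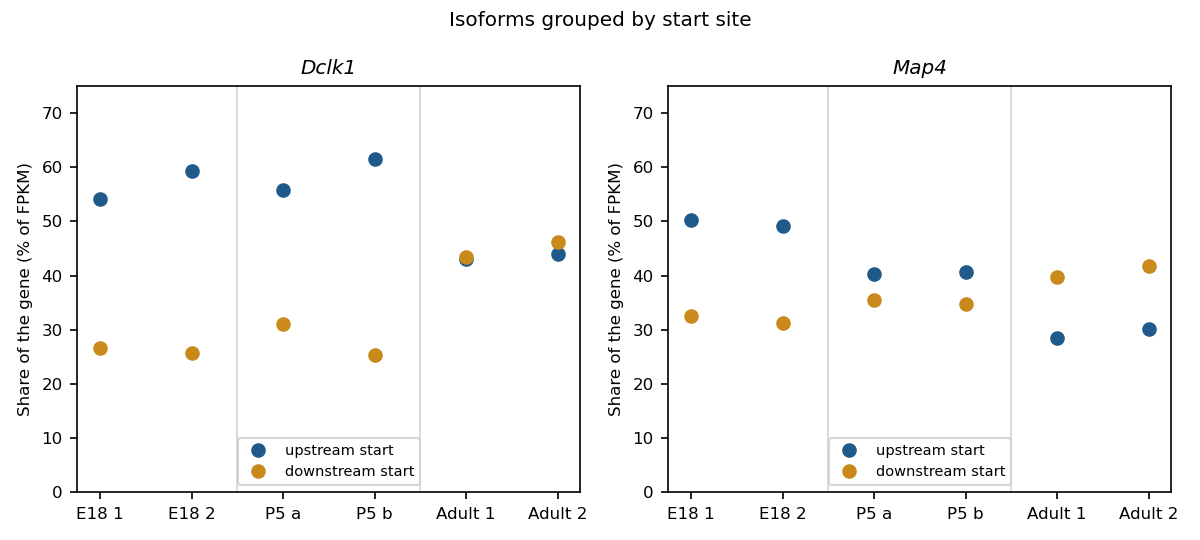
Share of Dclk1 and Map4 (% of summed FPKM) taken by isoforms of the upstream and the downstream start in each library. In Map4 the upstream start takes 28.5% and 30.1% in Adult and the downstream start 39.7% and 41.8%, whereas the upstream share is the larger in all 4 younger libraries of both genes.

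Of all 74 isoforms, 60 passed the filter of a mean of 1 FPKM and were tested. P5 against E18 called 5 of them higher and 0 lower, where 1.63% of the 34941 tested isoforms were called, 0.804% higher and 0.824% lower. Adult against P5 called 10 higher and 27 lower (43.3% of all isoforms, 19.2% higher and 24.1% lower), and Adult against E18 called 13 higher and 28 lower (44.7%, 17.9% and 26.8%). Of those called higher, 2 of 5, 6 of 10 and 7 of 13 in the same order had a mean under 1 FPKM at the earlier age, and of those called lower in Adult, 9 of 27 against P5 and 11 of 28 against E18 had one in Adult, so these isoforms passed the filter only through other ages, and the counts are given as a description. The isoforms higher in Adult than at P5 were 4 of Map4, 3 of Map2, 2 of Map6 and 1 of Dclk1. On shares, 32 of the 74 were tested. P5 against E18 called 0 shares (0.0231% of 30271 tested shares, 0.00991% higher and 0.0132% lower), Adult against P5 called 4 higher and 5 lower (16.2%, 8.18% and 8.06%), and Adult against E18 called 4 higher and 7 lower (13.9%, 6.89% and 7.03%). The mean share at the age where it was lower was under 5% for 6 of the 9 shares called against P5 and for 5 of the 11 called against E18.

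**Figure D5:**
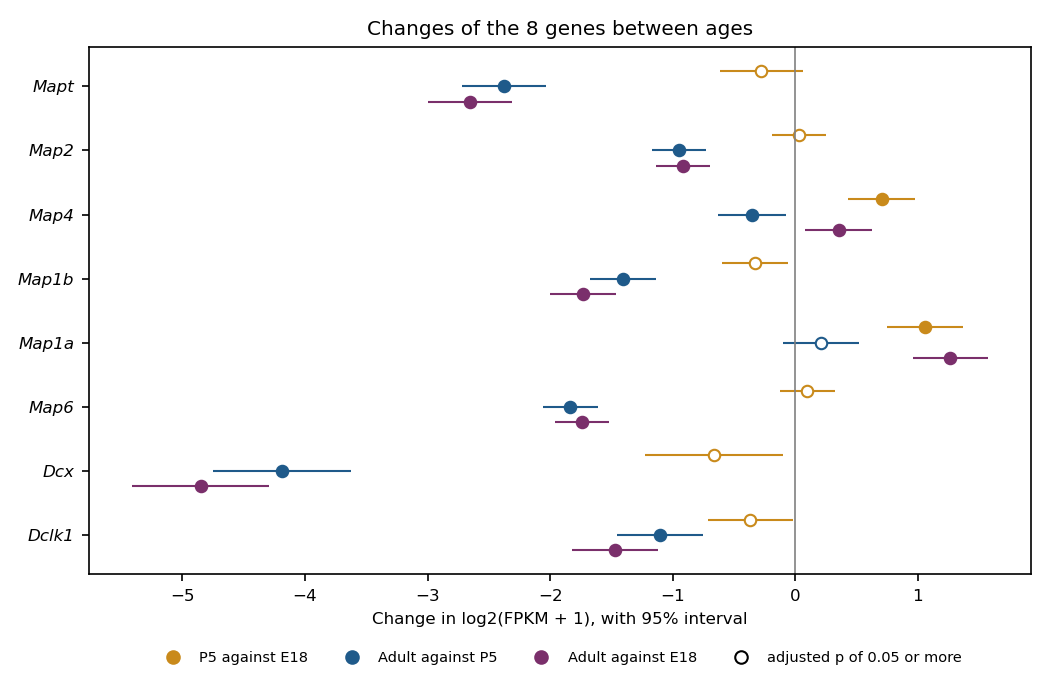
Change in log2(FPKM + 1) of each gene in the 3 comparisons of ages, with 95% intervals from limma, where open points did not pass an adjusted p of 0.05. In Adult against P5 the change runs from -4.19 for Dcx to -0.35 for Map4 and 0.21 for Map1a, and the sign for Map4 and Map1a changes with the scaling.

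Other genes of the microtubule system were counted beside all tested genes, of which Adult against P5 called 26.2% higher and 33.7% lower, so that more lower than higher calls is also the pattern of all genes. Of 13 tested genes of other structural microtubule-associated proteins, Adult against P5 called 5 higher and 5 lower (38.5% each). Tppp, which promotes tubulin polymerisation and is best known from oligodendrocytes, had 80.1 and 98.6 FPKM in Adult, against 28.5 and 24.1 FPKM at P5 (log2 change 1.72, adjusted p 0.000297), and it was also higher at P5 than at E18 (log2 change 1.24, adjusted p 0.0132). Map9, a spindle-associated protein, had 9.26 and 8.84 FPKM in Adult, against 34.3 and 31.5 FPKM at P5 (log2 change -1.75, adjusted p 0.000214). Of 25 plus-end and minus-end binding proteins, 3 were higher (12%) and 12 lower (48%). Mapre1, which encodes the end-binding protein EB1, had 14.4 and 12.4 FPKM in Adult, against 75.2 and 74.7 FPKM at P5 (log2 change -2.40, adjusted p 3.86e-05). Clip3, of the CLIP-170 family, had 80.9 and 93.4 FPKM in Adult, against 7.96 and 10.1 FPKM at P5 (log2 change 3.14, adjusted p 8.1e-05).

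Of 19 tubulin-modifying enzymes, 3 were higher (15.8%) and 9 lower (47.4%) in Adult than at P5. Atat1, the acetyltransferase of alpha-tubulin, had 7.55 and 7.17 FPKM in Adult, against 30.0 and 30.5 FPKM at P5 (log2 change -1.90, adjusted p 5.57e-05). Svbp, the partner of the vasohibin detyrosinases, had 4.67 and 5.64 FPKM in Adult, against 32.4 and 35.0 FPKM at P5 (log2 change -2.50, adjusted p 4.72e-05). Of 5 severing proteins, 1 was higher and 3 were lower. Spast, which encodes spastin, had 19.7 and 19.8 FPKM in Adult, against 86.1 and 91.8 FPKM at P5 (log2 change -2.12, adjusted p 5.75e-05). Of 37 kinases and phosphatases that act on microtubule-associated proteins, 4 were higher (10.8%) and 18 lower (48.6%). The median log2 change was 0.04 for structural proteins, -0.32 for end-binding proteins, -0.32 for modifying enzymes, -0.49 for severing proteins and -0.29 for kinases and phosphatases, beside -0.07 over all tested genes, and whether the lists differ from other genes was not tested.

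Fyn, a Src-family kinase of tau, had 21.3 and 25.0 FPKM in Adult, against 88.7 and 109 FPKM at P5 (log2 change -2.04, adjusted p 0.00012). Ppp2cb, a catalytic subunit of the phosphatase PP2A, had 46.9 and 43.1 FPKM in Adult, against 122 and 117 FPKM at P5 (log2 change -1.39, adjusted p 0.000157). In P5 against E18 the lists of structural, end-binding, modifying and severing proteins and of kinases and phosphatases had 3, 1, 1, 0 and 3 genes called higher and 0, 2, 1, 0 and 0 lower, in that order, where 5.52% and 4.95% of all genes were called. In Adult against E18 they had 4, 4, 3, 0 and 5 higher and 4, 13, 10, 2 and 17 lower, where 25.3% and 34.4% of all genes were called.

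The genes nearest in pattern were found by the Euclidean distance between values of log2(FPKM + 1), centred on each gene's mean over the 6 libraries, among 7426 genes with a mean of at least 10 FPKM. With their distances, they were Fam20c and Dock11 for Mapt (0.147 and 0.18), Nubp1 and Utp18 for Map2 (0.0568 and 0.0654), Fech and AC171273.3 for Map4 (0.148 and 0.148) and Rps2 and Ube2d1 for Map1b (0.144 and 0.156). They were Clip4 and Acyp2 for Map1a (0.187 and 0.221), Ctnnbip1 and Bloc1s2 for Map6 (0.171 and 0.173) and Shc2 and Nipsnap1 for Dclk1 (0.149 and 0.16). Dcx lay farther from its nearest genes than the other 7 did, with Serf1 and Sox4 (0.583 and 0.626). Sox4, a transcription factor of immature neurons, had 287 and 305 FPKM in libraries of E18, 126 and 168 FPKM in those of P5, and 9.49 and 11.2 FPKM in the Adult ones. Rps2 has near-identical copies in the genome, so its level is uncertain.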

How the data were processed

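Levels of isoforms in 6 libraries were used as FPKM deposited by the authors. HISAT2 (mapping), Cufflinks and Cuffdiff are named per the submitters' processing notes, with build mm10 and no versions. In the deposited file 0.0001 stands for 0, and every isoform reaches at least 1.0 FPKM in some library. Both P5 columns carry 1 header and are named a and b here. A further 10 columns of values were not used. FPKM hold no counts, so depth and counting error are unknown, and reads of overlapping isoforms are divided by a model, which leaves close listings uncertain.

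Isoforms were summed by symbol. The fits of log2(FPKM + 1) and of shares in percent used R 4.3.3 and limma 3.58.1, with lmFit, contrasts.fit and a trended eBayes on age over all 6 libraries, without a block, leaving 3 residual degrees of freedom. Filters were a mean of 1 FPKM (14390 genes, 34941 isoforms) and, for shares, a gene mean of 1 FPKM and a mean share of 5% (30271). The scale understates changes of low genes. The scripts were tested on simulated data. Structures came from GENCODE M21. Isoforms are named where their mean share is at least 5% or they are the largest coding isoform at an age; the Map4 forms of 902 and 414 codons, the Dclk1 form of 449 codons and the Mapt isoform of 6336 bases were named after their values were seen. From each list the 2 genes with the smallest p are named, apart from 1 gene that is not reported here, and for each member the 2 nearest genes. Members, lists and tests were chosen with earlier results of these data known.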

Additional observations from a re-analysis of the deposited data

How the results depend on the processing

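With 2 libraries per age, calls in P5 against E18 and calls on shares depended on single libraries. With 1 library left out at a time, 0 to 1 of the 8 genes were called in P5 against E18, against 2 with all libraries, and the 4 libraries of the comparison alone gave 1. The 5 isoforms called there became 2 with a pseudocount of 0.1 FPKM, 3 with no filter, 8 in TPM, and 0 with any library left out or with the 4 libraries alone. Shares called in P5 against E18 were 0, but 8 with diffSplice, which sets each isoform against the others of its gene. In Adult against P5 they were 9, but 14 with shares from 1% up, 29 with diffSplice, 4 with the 4 libraries alone and 0 to 12 with a library left out, the fewest without P5 library a. In Adult against E18 they were 11, but 29 with diffSplice and 0 to 14 with a library left out, the fewest without either E18 library. Gene and isoform counts in both Adult comparisons stayed within 1.5 times under every alternative run. Counts of shares over all genes moved as well. Of all its tested shares, diffSplice called 2.62% for P5 against E18, beside 0.0231% in the main fit. For Adult it called 30.5% relative to P5 and 26.7% relative to E18, beside 16.2% and 13.9%. With any library left out, fewer of all tested shares were called in each comparison. So were fewer of all genes and of all isoforms for P5 against E18.

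Whether the replicate numbers of E18 and Adult pair the libraries is not known, and the correlation of their deviations (0.0183) cannot decide it. A replicate block was fitted on the 4 libraries of E18 and Adult alone, which leaves fewer residual degrees of freedom than the main fit. It left 0 of the 11 shares called in Adult against E18, and 0 of all 30271 tested shares. It moved no other count by over 1.5 times.

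In Adult against P5, TPM moved the median of all genes to -0.76 and protein-coding scaling to 0.21. Of the 8 genes, Map1a and Map4 changed direction: Map1a was -0.51 in TPM in Adult against P5, and Map4 0.11 after quantile normalization there and -0.27 in TPM in Adult against E18. The cause was not tested. Since depth is unknown, isoforms of few FPKM carry a counting error that these values do not show.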
